A study of Mus musculus with 15 samples.

Results

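The 6 arrays described here compared red with green cells sorted from the thalamus of mouse embryos at embryonic day 14.5 (E14.5), out of 15 arrays in the series. Membership followed the sample titles alone, 3 biological replicates labelled red and 3 labelled green, and no measured value was used to choose them. Each embryo carried the genotype Gbx2CreER-IRES-EGFP/+::R26lsl-tdTomato/+ on a C57BL/6 background, so both groups had 1 Gbx2 allele with the inserted cassette, tamoxifen-inducible Cre (CreER) and the green fluorescent protein EGFP were both driven by the Gbx2 locus, and the red protein tdTomato was made from the Rosa26 locus once Cre had removed its stop. Pregnant females had received 4 mg of tamoxifen at E9.5. The E18.5 arrays, used below for the comparison between stages, came from the same genotype after 4 mg at E9, so stage and tamoxifen day cannot be told apart. The labels give fluorescence-activated sorting but no gates, so whether red cells lacked EGFP or green cells lacked tdTomato is not stated, and no unlabelled or Cre-negative cells were among the 15 samples. Nothing in the labels says how many embryos made up a replicate.

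The thalamus relays sensory and motor signals to the cortex, and its neurons are born in the diencephalic ventricular zone from progenitors that express the basic helix-loop-helix (bHLH) factor Olig3. Gbx2, a homeodomain transcription factor, is switched on as thalamic cells leave the cell cycle and is later kept only in some nuclei. Green fluorescence therefore follows current or recent Gbx2 expression, whereas tdTomato is a permanent mark of cells, and of all their descendants, in which Gbx2 was expressed while tamoxifen was active.

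Signals are log2 values per gene as deposited, and differences are red minus green on that scale, with the standard error (SE) of limma's fit to these 6 arrays. limma's moderated test was two-sided, with Benjamini-Hochberg adjustment across the 16635 genes that were tested, and a gene was called at adjusted p under 0.05. Of the genes tested, 1416 (8.51%) were called, 712 (4.28%) higher and 704 (4.23%) lower in red cells, and 202 (1.21%) were called and at least 2-fold apart, 116 (0.697%) higher and 86 (0.517%) lower. The red and green values did not overlap in any of the 1416 called genes, nor in 27.8% of all genes. Arrays correlated with their group mates at 0.977 to 0.990, but red replicate 3 correlated more highly with green replicate 1 (0.982) than with red replicate 2 (0.977). On a scale where the green mean of the called genes is 0 and the red mean is 1, green replicate 1 lay at 0.165 and red replicate 3 at 0.910. The calls numbered 608 with green replicate 2 left out, 603 with green replicate 3 left out, 716 with red replicate 1 left out and 2653 with red replicate 3 left out. Higher and lower calls in these runs were 328 and 280, 325 and 278, 386 and 330, and 1019 and 1634. They were 592 and 461 without red replicate 2 and 602 and 517 without green replicate 1. List counts below with 1 array left out are to be read beside these totals.

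Gbx2, whose locus drives EGFP, was lower in red cells. It read 7.33, 7.28 and 7.30 in red replicates 1, 2 and 3 and 7.88, 8.21 and 8.13 in green replicates 1, 2 and 3. The groups did not overlap, and the difference of -0.77 (SE 0.10, adjusted p = 0.0026) is 1.71-fold. A second transcript cluster for Gbx2 differed by -0.47. Sorting on EGFP favours this direction, so it is no independent finding, and with all 15 arrays in the fit the adjusted p was 0.27. Both populations carried the markers of thalamic neurons. Tcf7l2, a Wnt effector found throughout the postmitotic thalamus, read 11.57 in red and 11.65 in green cells on average, above 99.9% of all genes, and the neuronal tubulin Tubb3 read 11.36 and 11.26. Foxp2, a forkhead factor of thalamic neurons, was at 8.99 and 8.96, and Slc17a6, the glutamate transporter VGLUT2 of thalamic relay neurons, at 9.5 and 9.96. Of the 3 inhibitory markers, Gad1 (4.87 and 4.77) and Slc32a1 (5.02 and 4.88) lay among the dimmer genes in both groups, and Gad2 (6.48 and 5.66), brighter than 66.1% of genes, was higher in red cells.

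Of 18 thalamic identity genes tested, 6 were lower and 2 higher in red cells, and the median difference was -0.05. Calb1, which encodes the calcium buffer calbindin, showed the second largest fall of all genes tested. Its red arrays read 6.42, 6.20 and 6.75 and its green arrays 9.20, 9.59 and 9.47. Every green array was far above every red array, a difference of -2.97 (SE 0.15, adjusted p = 7.7e-05) or 7.81-fold. Barhl2, a homeodomain factor of the diencephalon, was lower by 2.77-fold (-1.47, SE 0.17, adjusted p = 0.0014). The LIM-homeodomain factors Lhx2 (-1.03, SE 0.09, adjusted p = 6.2e-04) and Lhx9 (-0.89, SE 0.11, adjusted p = 0.0019) were also lower, in all 3 red arrays against all 3 green arrays. Slc17a6 differed by -0.46 (adjusted p = 0.0266), a call lost without red replicate 1 or 2 or green replicate 2 or 3 (adjusted p = 0.079, 0.0675, 0.1056 and 0.1073) and with all 15 arrays in the fit (0.62). The 2 genes that were higher were Rora, a nuclear receptor of maturing thalamic nuclei, at 7.35, 7.39 and 7.19 in red against 6.74, 6.14 and 5.86 in green arrays, and Prox1, a homeodomain factor, at 8.42, 8.84 and 9.07 against 8.32, 7.56 and 7.86. Rora differed by 1.06 (SE 0.19, adjusted p = 0.0101) and lost its call without red replicate 1 (0.0541) or green replicate 2 (0.0605). Prox1 differed by 0.86 (SE 0.21, adjusted p = 0.0354) and lost its call without red replicate 2 or 3 or green replicate 2 or 3 (0.0847, 0.0519, 0.1382 and 0.1421), after median centring (0.0556), with no filter on dim genes (0.092) and with all 15 arrays in the fit (0.0911). Shox2, a homeodomain factor that belongs to none of the lists and was singled out after its values were seen, read 7.16, 7.13 and 6.95 in red and 8.55, 8.99 and 8.85 in green arrays. Its difference was -1.71 (SE 0.12, adjusted p = 2.0e-04).

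**Figure D1:**
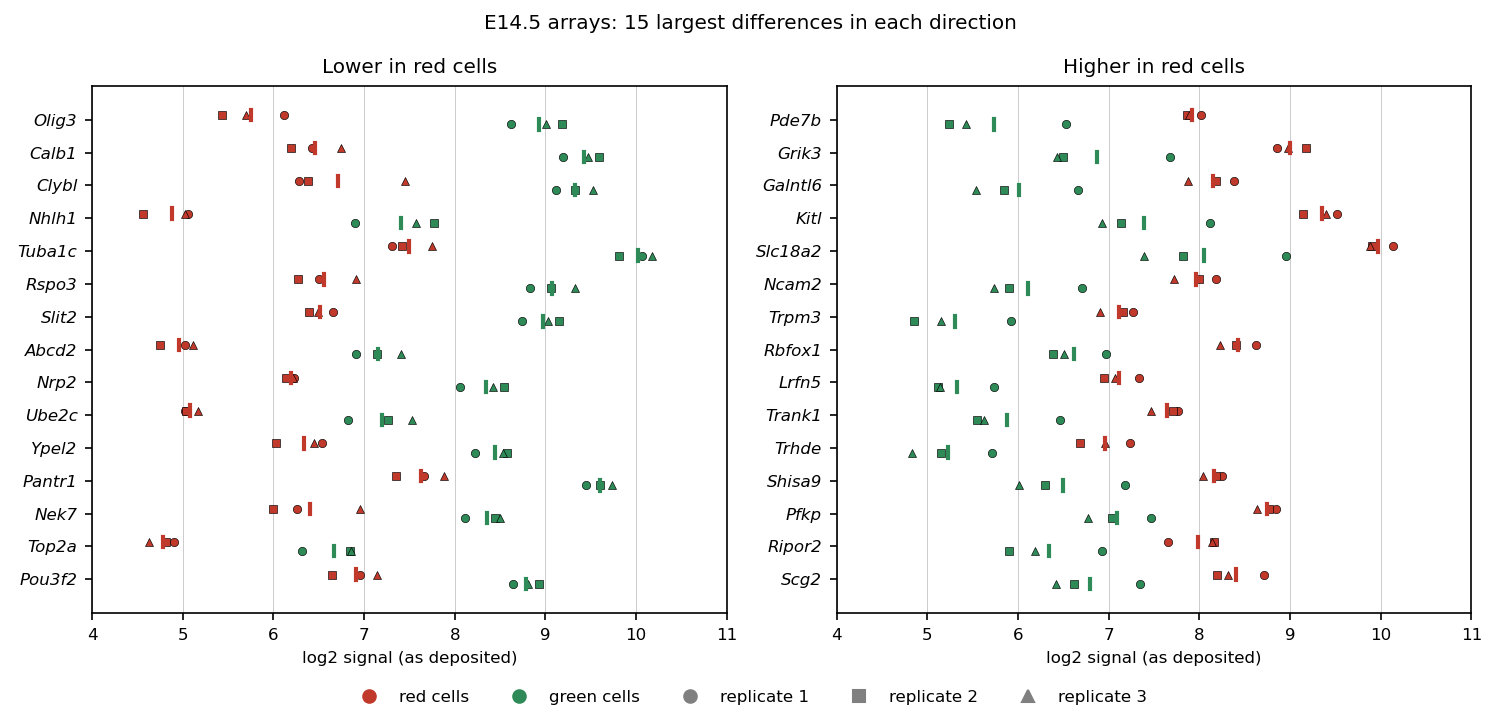
Log2 signal (horizontal axis, as deposited) of the 15 genes with the largest fall (left) and the 15 with the largest rise (right) in red against green E14.5 cells. Each symbol is 1 array (circle, square and triangle for replicates 1, 2 and 3) and each vertical bar is the mean of 3 arrays; red and green symbols do not overlap for any gene shown, and green replicate 1 is the highest green array for all 15 genes on the right.

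The largest fall of all was that of Olig3, the bHLH factor of thalamic progenitors. Red arrays read 6.11, 5.43 and 5.70, and green arrays read 8.62, 9.18 and 9.00. No red array came near a green one, and the difference was -3.19 (SE 0.19, adjusted p = 1.1e-04), or 9.10-fold. Among 26 progenitor genes tested, 6 were lower and 2 higher, with a median of -0.08. Prom1, a membrane protein of ventricular zone cells, fell from 6.56, 6.73 and 6.95 in green to 5.84, 5.86 and 5.66 in red arrays (-0.96, SE 0.11, adjusted p = 0.0017). Nes, the intermediate filament nestin, was at 6.46, 6.32 and 6.48 in red and 6.91, 7.03 and 6.96 in green arrays (-0.54, SE 0.09, adjusted p = 0.0056). The other genes that were lower, singled out after their values were seen, were Fabp7, the brain lipid-binding protein of radial glia (-1.40, SE 0.25), the filament protein gene Vim (-0.45, SE 0.09) and the proneural factor Neurog2 (-0.44, SE 0.10). Their adjusted p were 0.0087, 0.0177 and 0.0295, and each call was lost in the fit of 15 arrays (0.1024, 0.2117 and 0.1686). Leaving out green replicate 3 ended those of Fabp7 (0.0526), Vim (0.0874) and Neurog2 (0.0682) as well, leaving out green replicate 2 those of Vim (0.0877) and Neurog2 (0.127), and that of Neurog2 was also lost without red replicate 1 (0.0915), red replicate 2 (0.0739) or green replicate 1 (0.0891). Ptn, a secreted growth factor of radial glia, was higher by 0.76 (SE 0.13, adjusted p = 0.0069), and Slc1a3, the glutamate transporter GLAST, by 1.01 (SE 0.19, adjusted p = 0.0117), which was lost without green replicate 2 (0.0634) or 3 (0.0616). Sox2, a factor of neural progenitors that is also kept in thalamic neurons, was at 10.39 in red and 10.19 in green cells and was not called. The progenitor genes counted as lower were 3 when green replicate 3 was left out and 4 when green replicate 2 was.

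Genes of the cell cycle were lower in red cells. Of 29 tested, 17 were lower and 0 higher, with a median of -0.61, and 22 had an unadjusted p under 0.05. Without green replicate 2 or 3 the count fell to 11, and without red replicate 1 to 13. Lower calls over all genes fell from 704 to 280, 278 and 330 in the same runs. The 17 were Ube2c, Top2a, Ccnd2, Cdk1, Mki67, Ccnb2, Kif11, Ccna2, Cenpf, Bub1, Cenpe, Plk1, Rrm2, Bub1b, Cdc20, Aurkb and Aurka. Most of these act in mitosis or the approach to it. Rrm2 encodes a ribonucleotide reductase subunit that serves DNA synthesis. The replication genes Mcm2 (-0.13), Mcm6 (-0.08), Pcna (-0.08) and Mcm5 (0.19) were not called, and neither was Ccnd1 (0.09), which encodes the G1 cyclin D1. The rest of the 12 members not called, given here without values, were Mcm4, Mcm7, Tyms, Gins2, E2f1 and the mitotic genes Birc5 and Nusap1. Some of the 22 genes with an unadjusted p under 0.05 were therefore not called, so the small values just given do not stand for all 12. Ube2c, the ubiquitin-conjugating enzyme of the anaphase-promoting complex, read 5.03, 5.03 and 5.17 in red and 6.82, 7.26 and 7.52 in green arrays. The red arrays were tightly grouped and all below the green ones, a difference of -2.12 (SE 0.16, adjusted p = 2.6e-04) or 4.36-fold. Top2a, topoisomerase II alpha of dividing cells, read 4.90, 4.81 and 4.63 against 6.31, 6.84 and 6.85 (-1.89, SE 0.15, adjusted p = 3.5e-04). In red cells both genes were close to 4.72, the mean below which a gene was left out as dim, so the red level is near the bottom of the scale. Ccnd2, the cyclin D2 gene of radial glia and intermediate progenitors, read 5.15, 5.43 and 5.86 against 7.03, 7.40 and 7.30 (-1.77, SE 0.17, adjusted p = 9.0e-04). Cdk1, the mitotic kinase, differed by -1.20 (SE 0.12, adjusted p = 9.0e-04), and Mki67, the Ki-67 gene named here with its promoter, by -1.17 (SE 0.12, adjusted p = 0.0011). In bulk samples fewer cells of a type and less RNA per cell cannot be told apart.

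Promoters of mitotic genes are known to carry CCAAT boxes, bound by NF-Y, and the cell cycle genes homology region (CHR), bound by the MuvB complex. The 250 bases before the start site are shown for the 4 cell cycle genes with the largest fall that the RefSeq promoter table (GRCm38.p6) holds, since they moved together, with CCAAT boxes (CCAAT, which reads ATTGG on the other strand) and CHR letters (TTTGAA, which reads TTCAAA on the other strand, and the palindromic form TTCGAA) in capitals; matches were sought on both strands, and where matches of 1 motif adjoin or overlap they form 1 run of capitals. The regions are chr2:164769679-164769928 on the plus strand for Ube2c and, on the minus strand, chr11:99024190-99024439 for Top2a, chr10:69352913-69353162 for Cdk1 and chr7:135716380-135716629 for Mki67, each printed in the direction of transcription.
Ube2c: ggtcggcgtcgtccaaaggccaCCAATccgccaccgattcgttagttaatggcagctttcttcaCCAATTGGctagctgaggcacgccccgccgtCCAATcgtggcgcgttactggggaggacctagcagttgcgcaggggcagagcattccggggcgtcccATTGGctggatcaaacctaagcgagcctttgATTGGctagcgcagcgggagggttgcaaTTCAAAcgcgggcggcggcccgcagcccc
Top2a: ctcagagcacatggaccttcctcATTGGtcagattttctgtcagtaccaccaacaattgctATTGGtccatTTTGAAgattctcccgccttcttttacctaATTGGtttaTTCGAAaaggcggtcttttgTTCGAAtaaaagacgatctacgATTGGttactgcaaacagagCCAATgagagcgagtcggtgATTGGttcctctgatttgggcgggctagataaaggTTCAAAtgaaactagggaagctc
Cdk1: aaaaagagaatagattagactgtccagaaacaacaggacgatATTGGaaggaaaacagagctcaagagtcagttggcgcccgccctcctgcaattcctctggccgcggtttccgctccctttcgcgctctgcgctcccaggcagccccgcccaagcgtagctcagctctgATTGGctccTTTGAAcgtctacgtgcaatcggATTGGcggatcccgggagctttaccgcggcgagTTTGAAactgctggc
Mki67: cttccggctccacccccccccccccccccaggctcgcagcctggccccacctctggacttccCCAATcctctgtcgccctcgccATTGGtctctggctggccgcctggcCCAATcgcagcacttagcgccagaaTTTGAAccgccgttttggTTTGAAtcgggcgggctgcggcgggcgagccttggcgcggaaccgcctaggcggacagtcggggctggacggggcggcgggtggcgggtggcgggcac
Ube2c held 6 CCAAT matches and 1 CHR match, Top2a 6 and 4, Cdk1 3 and 2, and Mki67 3 and 2. All 14 table promoters of the called cell cycle genes held a CCAAT box (100%) and 8 held a CHR (57.1%). In the 10 promoters of cell cycle genes tested and not called, 6 held a CCAAT box (60%) and 2 a CHR (20%). Of all 32851 promoters in the table, 33.8% held a CCAAT box, 17.1% a CHR and 6.02% both. A match describes the letters only and is no evidence of binding.

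**Figure D2:**
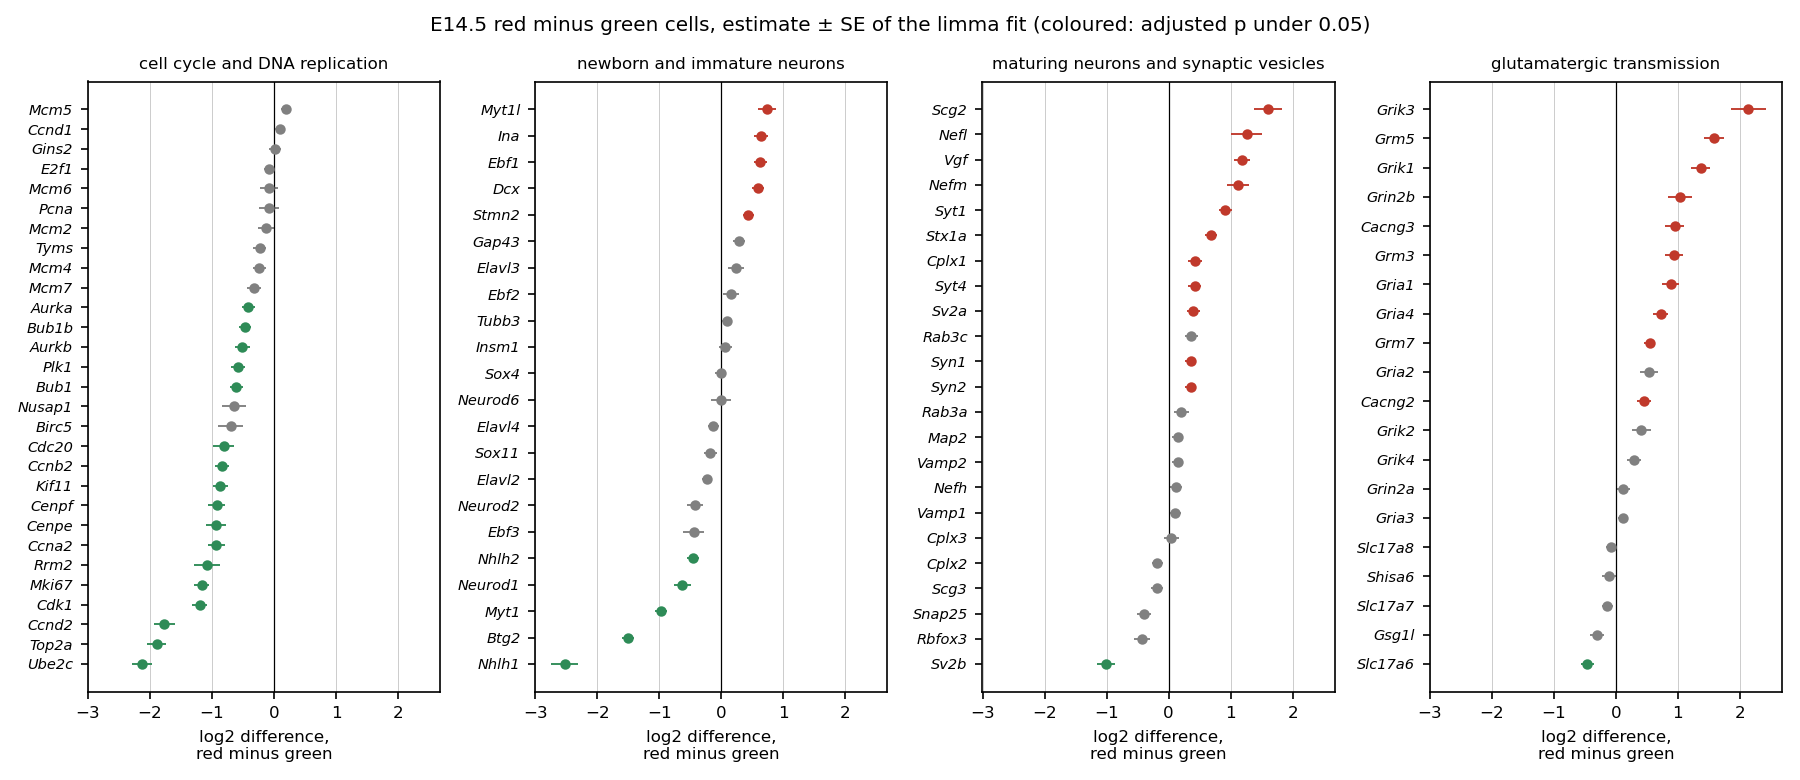
Red minus green difference (log2, horizontal axis) with its SE for every tested member of 4 gene lists at E14.5; coloured points are past adjusted p 0.05, red for higher and green for lower in red cells. The 17 coloured cell cycle genes all lie below 0, the newborn neuron genes split 5 against 5, and 11 synaptic vesicle and neurofilament genes and 10 glutamate receptor genes lie above 0.

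Genes of newborn and immature neurons split in both directions, with 5 of 22 lower and 5 higher and a median of -0.01. Without green replicate 2 or 3 the counts were 3 lower and 2 higher, and without red replicate 1 they were 4 and 3. Nhlh1, a bHLH factor switched on briefly as neurons leave the ventricular zone, read 5.06, 4.57 and 5.03 in red and 6.90, 7.77 and 7.57 in green arrays. The red arrays were near the dim end of the scale, and the difference was -2.53 (SE 0.22, adjusted p = 5.8e-04) or 5.76-fold. Btg2, an antiproliferative gene of progenitors about to make neurons, read 5.16, 5.09 and 5.38 against 6.68, 6.72 and 6.74. It was 2.83-fold lower (-1.50, SE 0.10, adjusted p = 1.8e-04). Myt1, a zinc finger factor of neurogenesis, differed by -0.97 (SE 0.10, adjusted p = 0.0010). Nhlh2 and Neurod1, 2 further bHLH genes, were lower too. Nhlh2 differed by -0.45 (SE 0.09, adjusted p = 0.0187), which was lost without green replicate 2 (0.0764) or 3 (0.0999) and in the fit of 15 arrays (0.39). The 5 higher genes, Dcx, Ebf1, Ina, Myt1l and Stmn2, include cytoskeletal genes that stay on in young postmitotic neurons. Dcx, the microtubule protein doublecortin, was at 10.79, 10.75 and 10.76 in red and 10.34, 10.09 and 10.10 in green arrays. All 3 red arrays were higher, by 0.59 on average (SE 0.09, adjusted p = 0.0055), although in the fit of 15 arrays the adjusted p was 0.17.

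Genes of maturing neurons and synaptic vesicles were mostly higher in red cells. Of 23 tested, 11 were higher and 1 lower, with a median of 0.35 against -0.0001 over all genes. The number of higher genes was 5 without red replicate 1 or green replicate 2, 6 when green replicate 3 was left out and 7 when green replicate 1 was. Scg2 encodes secretogranin II, a dense-core vesicle protein. It read 8.72, 8.19 and 8.31 in red arrays and 7.35, 6.62 and 6.42 in green arrays. Green replicate 1 was the highest green array and still below every red array, and the difference was 1.61 (SE 0.23, adjusted p = 0.0037) or 3.05-fold. Vgf, a neurotrophin-induced secreted protein gene, read 7.14, 6.91 and 6.66 against 5.84, 5.55 and 5.77 (1.19, SE 0.13, adjusted p = 0.0014). Syt1, the calcium sensor of synaptic vesicle release, was at 8.68, 8.59 and 8.79 against 7.89, 7.60 and 7.82 (0.92, SE 0.10, adjusted p = 0.0015). Stx1a, the syntaxin of the presynaptic membrane, was higher by 0.69 (SE 0.09, adjusted p = 0.0032). The remaining higher members were the neurofilament genes Nefm and Nefl and the vesicle genes Syn1, Syn2, Syt4, Sv2a and Cplx1. Sv2b, a vesicle glycoprotein gene, was the exception. It read 5.47, 5.04 and 5.62 in red and 6.30, 6.42 and 6.45 in green arrays (-1.01, SE 0.14, adjusted p = 0.0033; 0.0649 with all 15 arrays in the fit). Scg2 and Vgf are known targets of the factor CREB. The Scg2 promoter, chr1:79440027-79440276 on the minus strand (RefSeq, GRCm38.p6), is shown because it holds the full cAMP response element TGACGTCA, in capitals, which 1.55% of all promoters in the table hold on either strand.
Scg2: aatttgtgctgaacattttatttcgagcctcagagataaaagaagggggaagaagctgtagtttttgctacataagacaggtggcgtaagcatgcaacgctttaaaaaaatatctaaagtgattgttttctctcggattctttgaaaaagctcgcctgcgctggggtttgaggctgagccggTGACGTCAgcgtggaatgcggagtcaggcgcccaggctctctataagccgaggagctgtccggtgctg
The first base of the element lay 68 bases before the start site. Since this promoter was shown for its element, the share over all promoters is background only, and no share was counted for the other vesicle genes. A part of CREB in these differences was not tested.

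Glutamate receptor genes were the list with the highest share of higher members among those with 20 or more genes tested. Of 20 glutamatergic genes, 10 were higher and 1, Slc17a6, was lower, with a median of 0.49. Grik3, a kainate receptor subunit, read 8.86, 9.17 and 8.98 in red and 7.68, 6.50 and 6.43 in green arrays. Green replicate 1 stood above its group mates by over 1 log2 unit, and the difference was 2.14 (SE 0.28, adjusted p = 0.0029) or 4.39-fold. Grik1, a second kainate subunit, read 6.73, 6.45 and 6.12 against 5.25, 5.02 and 4.92 (1.37, SE 0.15, adjusted p = 0.0014). Grm5, the metabotropic receptor mGluR5, was at 6.98, 6.78 and 6.84 against 5.70, 5.13 and 5.02 (1.58, SE 0.16, adjusted p = 0.0010). Grm3, a metabotropic receptor coupled to Gi, differed by 0.94 (SE 0.14, adjusted p = 0.0048; 0.18 in the fit of 15 arrays). The AMPA receptor subunits Gria1 and Gria4, the NMDA receptor subunit Grin2b, Grm7 and the AMPA receptor auxiliary subunits Cacng2 and Cacng3 were the other higher members. The AMPA subunit Gria2 (0.53) was not called.

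Receptors for inhibitory transmitters showed the same direction. Of 16 GABA and glycine receptor genes tested, including the chloride exporter, 7 were higher and 0 lower, with a median of 0.31. Gabbr2, a subunit of the metabotropic GABA(B) receptor, read 7.87, 7.99 and 7.98 in red and 6.89, 6.39 and 6.52 in green arrays. All red arrays were above all green ones, a difference of 1.35 (SE 0.13, adjusted p = 8.9e-04). Gabra2, an alpha subunit of the GABA(A) receptor, was at 8.34, 8.50 and 8.40 against 7.45, 6.63 and 6.68 (1.50, SE 0.19, adjusted p = 0.0026). Glra2, the glycine receptor subunit of embryonic neurons, differed by 1.23 (SE 0.18, adjusted p = 0.0043; 0.0504 in the fit of 15 arrays). Slc12a5, the potassium-chloride cotransporter KCC2 that appears as neurons mature, was at 6.71, 6.45 and 6.39 against 5.80, 5.34 and 5.67 (0.91, SE 0.13, adjusted p = 0.0043).

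Of 45 ion channel genes tested, 13 were higher and 1 lower, with a median of 0.20. The 3 higher members with the smallest p were calcium channel subunits. Cacna1d, an L-type channel subunit, read 6.94, 6.99 and 6.75 in red and 5.98, 5.69 and 5.64 in green arrays (1.12, SE 0.11, adjusted p = 0.0010). Cacna1e, the R-type subunit, read 8.28, 8.65 and 8.32 against 7.53, 7.08 and 7.02 (1.21, SE 0.15, adjusted p = 0.0023). Cacna1h, a T-type subunit, was at 7.27, 7.40 and 7.36 against 6.69, 6.36 and 6.26 (0.91, SE 0.12, adjusted p = 0.0027). In each of the 3 genes the groups did not overlap. The auxiliary subunit Cacna2d1 ran the other way, at 7.07, 6.91 and 7.08 in red and 8.26, 8.57 and 8.50 in green arrays (-1.42, SE 0.10, adjusted p = 2.5e-04). The other higher members were Cacna1a, Cacna1c, the potassium channel genes Kcnma1, Kcnc2, Kcnd2, Kcnj6 and Kcnn3, and the sodium channel genes Scn2a, Scn3b and Scn9a.

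Axon guidance genes moved in both directions, with 11 of 50 higher, 13 lower and a median of -0.02. The higher members numbered 7 without red replicate 1 and 6 without green replicate 2 or 3. Slit2, a secreted ligand of Robo receptors that steers thalamic axons, was among the genes with the smallest adjusted p. Its red arrays read 6.66, 6.40 and 6.49 and its green arrays 8.75, 9.15 and 9.03. The arrays of each group lay close together and over 2 log2 units from the other group, a difference of -2.46 (SE 0.12, adjusted p = 7.7e-05) or 5.51-fold. Slit1, a related ligand, differed by -0.98 (SE 0.14, adjusted p = 0.0041). The receptors ran in opposite directions. Robo1 read 9.22, 9.53 and 9.63 in red and 10.35, 10.61 and 10.41 in green arrays (-1.0, SE 0.12, adjusted p = 0.0020), whereas Robo2 read 9.76, 9.81 and 9.70 in red and 9.31, 9.11 and 8.97 in green arrays (0.63, SE 0.10, adjusted p = 0.0063). In the fit of 15 arrays neither receptor was called (0.0705 and 0.33). Slit1 and both receptors were picked out after their values were seen, as partners of Slit2. Flrt3, a membrane protein that binds Robo1 and modulates the response of thalamic axons to Slit and netrin, was also lower (-1.20, SE 0.12, adjusted p = 9.4e-04).

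Nrp2, the neuropilin co-receptor for class 3 semaphorins, read 6.22, 6.14 and 6.21 in red and 8.06, 8.54 and 8.42 in green arrays. The red arrays differed from each other by under 0.1, and the difference between groups was -2.15 (SE 0.12, adjusted p = 1.1e-04) or 4.43-fold. Efnb2, a transmembrane ephrin, was at 5.89, 5.50 and 5.73 against 6.80, 7.13 and 6.94 (-1.25, SE 0.12, adjusted p = 9.0e-04). Other lower members were Sema5a, Sema3c, Efna5, Ntng2, Unc5c, Plxna2 and Neo1. The higher members other than Robo2 were the transmembrane semaphorin genes Sema6a, Sema6d and Sema7a, the Eph receptor genes Epha3, Epha7 and Epha8, Flrt2, Ntng1, Plxna1 and Cxcl12. Within a single family, members therefore lay on both sides of 0, as with Ntng1 and Ntng2, Flrt2 and Flrt3, and Plxna1 and Plxna2. Dcc, the netrin receptor, was not called (-0.03, SE 0.10, adjusted p = 0.91).

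**Figure D3:**
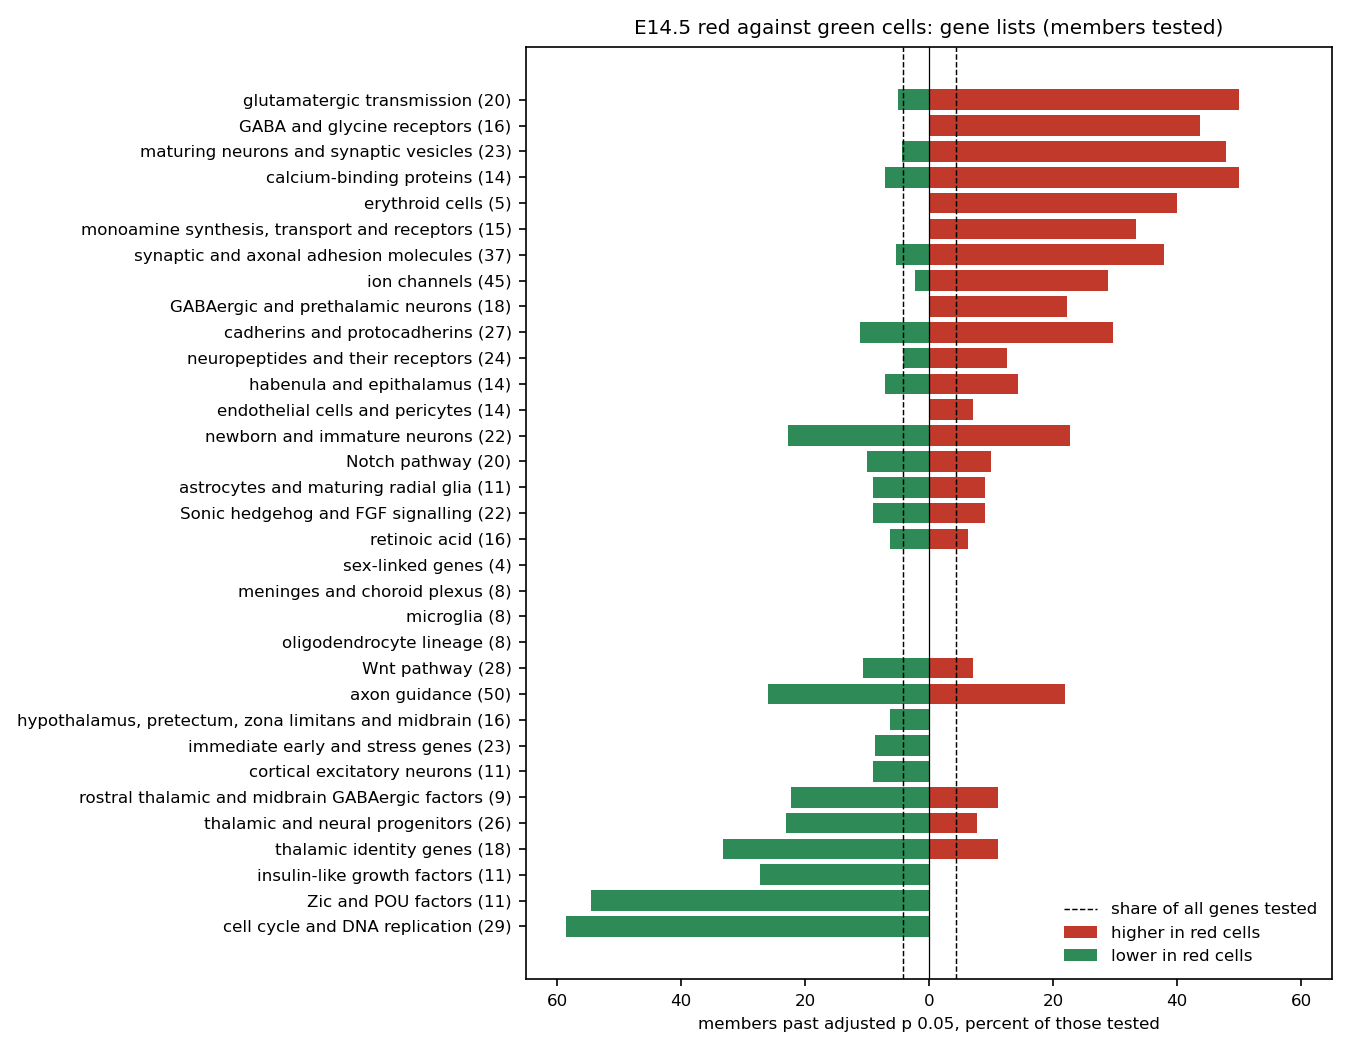
Percent of tested members of each of 33 gene lists past adjusted p 0.05 in E14.5 red against green cells, to the right for higher and to the left for lower in red cells, with the number tested in brackets and the lists in order of the higher share minus the lower share. Dashed lines mark the shares of all 16635 genes (4.28% and 4.23%); cell cycle genes lie farthest to the left and glutamatergic genes farthest to the right.

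Cell adhesion genes were higher more often than lower. Of 37 synaptic and axonal adhesion genes tested, 14 were higher and 2 lower, with a median of 0.30. Ncam2, a neural cell adhesion molecule, read 8.19, 8.0 and 7.72 in red and 6.70, 5.90 and 5.74 in green arrays (1.86, SE 0.23, adjusted p = 0.0020). Green replicate 1 was again the green array nearest to the red ones. Cntn4, an immunoglobulin-domain contactin, was at 6.83, 6.83 and 6.86 against 5.80, 5.06 and 5.27 (1.46, SE 0.17, adjusted p = 0.0015). The neurexin relative Cntnap4 differed by 1.08 (SE 0.11, adjusted p = 0.0010) and Igsf21, a neurexin ligand at inhibitory synapses, by 1.27 (SE 0.15, adjusted p = 0.0017). All 4 teneurin genes, Tenm1, Tenm2, Tenm3 and Tenm4, which encode large transmembrane proteins of synaptic partner matching, were called higher. The 2 lower members were Cntn2, the axonal glycoprotein TAG-1, and Dscaml1. Of 27 cadherin and protocadherin genes, 8 were higher and 3 lower, with a median of 0.18. The higher count was 3 without green replicate 2 or 3 and 4 without red replicate 1. Cdh11, a type II cadherin, read 8.26, 8.43 and 8.54 in red and 7.72, 7.09 and 6.99 in green arrays (1.14, SE 0.18, adjusted p = 0.0050). Cdh4, the cadherin also called R-cadherin, differed by 0.95 (SE 0.12, adjusted p = 0.0024), while a second transcript cluster of the gene differed by 0.25. Pcdh8 (-0.82, SE 0.09, adjusted p = 0.0015) and Pcdh18 (-0.84, SE 0.12, adjusted p = 0.0033; 0.40 in the fit of 15 arrays) were lower in red cells.

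Transcription factors of the Zic and POU families were lower or not called. Of 11 tested, 6 were lower and 0 higher, with a median of -0.39, and 4 were lower without green replicate 2 or 3. Pou3f2, also called Brn2, promotes the neuronal differentiation of progenitors. Its red arrays read 6.96, 6.65 and 7.14 and its green arrays 8.64, 8.93 and 8.80, a difference of -1.87 (SE 0.13, adjusted p = 2.0e-04) or 3.66-fold. Its relatives Pou3f4 (-1.44, SE 0.14, adjusted p = 8.7e-04) and Pou3f3 (-0.95, SE 0.10, adjusted p = 0.0010) were lower as well. Pantr1, a long noncoding RNA whose gene neighbours Pou3f3, read 7.66, 7.35 and 7.88 against 9.45, 9.61 and 9.74 (-1.97, SE 0.14, adjusted p = 2.0e-04). Zic5, a zinc finger factor of the dorsal neural tube, was at 7.07, 7.08 and 7.80 in red and 8.93, 9.04 and 9.14 in green arrays. Red replicate 3 was the highest red array yet remained below every green array (-1.72, SE 0.18, adjusted p = 0.0011). Zic2 and Pou6f1 were the other lower members. Otx2, a homeodomain factor of the forebrain and midbrain, was at 5.68, 5.65 and 6.24 against 7.32, 7.46 and 7.70 (-1.64, SE 0.16, adjusted p = 9.4e-04).

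Genes of GABAergic and prethalamic neurons gave 4 higher and 0 lower of 18 tested, with a median of 0.23. The count was 2 without red replicate 1, green replicate 2 or green replicate 3 and 6 without red replicate 2. Gad2, a GABA-synthesizing enzyme, read 6.57, 6.39 and 6.49 in red and 5.75, 5.64 and 5.59 in green arrays (0.82, SE 0.09, adjusted p = 0.0012). Meis2, a homeodomain factor of prethalamic and other GABAergic cells, was at 6.52, 6.15 and 6.21 against 5.54, 5.55 and 5.35 (0.81, SE 0.12, adjusted p = 0.0039). Isl1 and Lhx1, LIM-homeodomain factors, differed by 0.77 (SE 0.19, adjusted p = 0.0397) and 0.54 (SE 0.12, adjusted p = 0.0249). Both lost their call without red replicate 1 (0.1458 and 0.0811), green replicate 2 (0.1454 and 0.1066) or green replicate 3 (0.13 and 0.1226) and in the fit of 15 arrays (0.0644 and 0.0766). Both also lost it with no filter on dim genes (0.0961 and 0.05), and Isl1 without red replicate 3 (0.0581) and after median centring (0.0661). Of the genes that define inhibitory neurons, Gad2 was thus called, and Gad1 (0.10), the vesicular transporter gene Slc32a1 (0.14) and the prethalamic factor gene Dlx2 (0.09) were not. Among rostral thalamic and midbrain GABAergic factors, Gata2 (0.26), Gata3 (0.09) and Tal1 (-0.06) were not called either. Of that list of 9, Lhx1 was higher and Otx2 and Zfpm2 were lower. Zfpm2 differed by -0.60 (SE 0.12, adjusted p = 0.0173) and lost its call without red replicate 1 (0.0608), green replicate 1 (0.0506) or green replicate 3 (0.0901) and in the fit of 15 arrays (0.25).

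Sensory thalamic neurons are known to take up serotonin for a time in development without making it, and to store it in vesicles through the vesicular monoamine transporter Slc18a2. This gene read 10.14, 9.91 and 9.88 in red and 8.96, 7.82 and 7.39 in green arrays. The green arrays were widely spread and all below the red arrays, and the difference was 1.92 (SE 0.32, adjusted p = 0.0072) or 3.78-fold. Of 15 monoamine genes tested, 5 were higher and 0 lower, with a median of 0.15, and 10 more on the array were left out as dim. The serotonin receptor gene Htr1b was at 5.90, 5.80 and 5.73 against 5.13, 4.84 and 4.67 (0.93, SE 0.12, adjusted p = 0.0027). Of the dopamine receptors, Drd2 was at 6.40, 6.07 and 6.14 against 5.37, 4.99 and 5.41 (0.95, SE 0.14, adjusted p = 0.0039). Drd1 differed by 0.41 (SE 0.09, adjusted p = 0.0217), with the call lost without red replicate 1 (0.0804) or 2 (0.0552) or green replicate 2 (0.1028) or 3 (0.1039) and in the fit of 15 arrays (0.26). Htr5a, a second serotonin receptor gene, was the remaining higher member, and without red replicate 1 or 2 or green replicate 2 or 3 the list had 3. Th encodes tyrosine hydroxylase, which makes the dopamine precursor. It read 5.14, 5.11 and 5.01 in red and 5.16, 5.09 and 5.08 in green arrays at this stage and was not called (-0.02, SE 0.08, adjusted p = 0.91).

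Calcium-binding proteins, used as markers of neuron classes, had 7 higher and 1 lower member of 14, with a median of 0.28. The higher count was 5 without red replicate 1, green replicate 2 or green replicate 3 and 6 without green replicate 1. Calb1 was the lower member. Necab1 and Necab2, neuronal EF-hand proteins, differed by 1.12 (SE 0.16) and 1.16 (SE 0.17), both with adjusted p = 0.0039. Calb2, which encodes calretinin, was at 5.98, 5.95 and 6.52 in red and 5.60, 5.36 and 5.44 in green arrays (0.69, SE 0.15, adjusted p = 0.0242). Vsnl1, visinin-like protein 1, differed by 0.94 (SE 0.12, adjusted p = 0.0022; 0.18 in the fit of 15 arrays). Calbindin and calretinin genes thus lay on opposite sides of 0 at E14.5.

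Signalling genes were called in both directions, where 8.51% of all genes were called. Of 28 Wnt pathway genes, 3 were lower and 2 higher, with a median of 0.01. Rspo3, a secreted R-spondin that strengthens Wnt signalling, read 6.50, 6.27 and 6.91 in red and 8.83, 9.07 and 9.33 in green arrays. Its groups were over 1.5 log2 units apart at their nearest arrays, a difference of -2.52 (SE 0.17, adjusted p = 2.0e-04) or 5.72-fold. The receptor Fzd1 (-0.80, SE 0.10, adjusted p = 0.0026) and Axin2, a target and brake of the pathway (-0.75, SE 0.10, adjusted p = 0.0035), were lower. Fzd8, another receptor, was higher by 0.58 (SE 0.12, adjusted p = 0.0154), which was lost without red replicate 1 (0.0581) and in the fit of 15 arrays (0.14). Sfrp2, a secreted Wnt antagonist, was the other higher member, and the higher count was 0 without red replicate 1 and 1 without red replicate 2 or any 1 green array. Of 22 Sonic hedgehog and FGF genes, 2 were lower and 2 higher. Fgfr2, an FGF receptor of progenitors, read 5.28, 5.19 and 5.38 in red and 6.63, 6.98 and 6.93 in green arrays (-1.56, SE 0.11, adjusted p = 2.0e-04), and the hedgehog co-receptor Cdon differed by -0.68 (SE 0.09, adjusted p = 0.0027). Fgf13, an intracellular FGF of neurons, was higher by 0.67 (SE 0.09, adjusted p = 0.0036). Spry2, an inhibitor of FGF receptor signalling, was higher by 0.40 (SE 0.09, adjusted p = 0.0227), a call lost without red replicate 1 (0.0867) or 2 (0.0617) or any green array (0.0684, 0.0589 and 0.1141). Of 20 Notch pathway genes, 2 were higher and 2 lower, against 3 and 5 without red replicate 3. Dlk1, a noncanonical ligand, differed by 1.46 (SE 0.18, adjusted p = 0.0022) and Mib1, the ligase that activates Delta ligands, by -0.51 (SE 0.08, adjusted p = 0.0056). The ligand gene Jag2 (0.44, SE 0.09, adjusted p = 0.0143) was higher and the Notch-modifying enzyme gene Mfng (-0.64, SE 0.12, adjusted p = 0.0137) lower. Both lost their call without red replicate 1 (0.0632 and 0.0653), green replicate 2 (0.0642 and 0.0682) or green replicate 3 (0.0788 and 0.076), and Jag2 also in the fit of 15 arrays (0.14). The Notch targets Hes1 (0.23) and Hes5 (0.05) were not called.

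The 2 retinoic acid binding proteins ran in opposite directions. Crabp1 read 5.59 in each red array and 6.63, 6.68 and 6.95 in green arrays (-1.17, SE 0.10, adjusted p = 5.8e-04). Crabp2 read 10.44, 9.79 and 10.10 in red and 9.36, 8.34 and 8.07 in green arrays (1.52, SE 0.30, adjusted p = 0.0145). The call of Crabp2 was lost without red replicate 1 (0.0746), green replicate 2 (0.0793) or green replicate 3 (0.0633), with no filter on dim genes (0.0532) and in the fit of 15 arrays (0.14). The other 14 retinoic acid genes tested were not called. Of all genes tested, 8.51% were called, 4.28% higher and 4.23% lower. Of 11 insulin-like growth factor genes, 3 were lower and 0 higher, and none of the 6 counts without 1 array differed from 3. Igfbp2 and Igfbpl1, which encode a binding protein and a relative of it, differed by -0.91 (SE 0.10, adjusted p = 0.0014) and -0.95 (SE 0.14, adjusted p = 0.0039). Irs1, the adaptor of insulin and IGF receptors, differed by -0.97 (SE 0.16, adjusted p = 0.0073; 0.0891 in the fit of 15 arrays). Among 24 neuropeptide and receptor genes, 3 were higher and 1 lower, and without red replicate 3 the lower members were 3. In that run the lower calls over all genes rose from 704 to 1634. Cbln4, a synaptic organizer of the cerebellin family, was higher by 0.79 (SE 0.08, adjusted p = 0.0011; 0.31 in the fit of 15 arrays), and its relative Cbln2 differed by -1.03 (SE 0.18, adjusted p = 0.0079; 0.0501 without green replicate 2 and 0.11 in the fit of 15 arrays). The other higher members were Vgf and the stress hormone receptor gene Crhr1 (0.48, SE 0.09, adjusted p = 0.0148), whose call was lost without red replicate 1 (0.061), green replicate 1 (0.0542) or green replicate 2 (0.0692) and in the fit of 15 arrays (0.0787).

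Several of the largest differences fell outside the lists. Clybl, a mitochondrial citramalyl-CoA lyase, read 6.29, 6.38 and 7.45 in red and 9.11, 9.33 and 9.52 in green arrays (-2.61, SE 0.27, adjusted p = 0.0010). Tuba1c, an alpha-tubulin isotype, was at 7.31, 7.42 and 7.75 against 10.06, 9.81 and 10.18 (-2.52, SE 0.14, adjusted p = 8.6e-05). A second transcript cluster of Tuba1c differed by -2.48. Abcd2, a peroxisomal fatty acid transporter (-2.19, SE 0.14, adjusted p = 1.8e-04), Ypel2 (-2.11, SE 0.15, adjusted p = 2.0e-04) and Nek7, a kinase of mitosis and inflammasome assembly (-1.95, SE 0.22, adjusted p = 0.0015), were also lower. In Clybl and Nek7, red replicate 3 stood above the other red arrays by over 0.6 and remained below all green arrays.

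Pde7b, a cyclic AMP phosphodiesterase, had the largest rise of all genes. It read 8.02, 7.86 and 7.89 in red and 6.53, 5.24 and 5.42 in green arrays (2.19, SE 0.28, adjusted p = 0.0024; 4.57-fold). Kitl, the ligand of the Kit receptor, was at 9.52, 9.14 and 9.40 against 8.11, 7.14 and 6.93 (1.96, SE 0.26, adjusted p = 0.0030). Rbfox1, a neuronal splicing regulator, was at 8.63, 8.41 and 8.23 against 6.97, 6.39 and 6.51 (1.80, SE 0.16, adjusted p = 6.2e-04). In all 3 genes the green arrays spread more than the red arrays. Galntl6 (2.13), the cation channel gene Trpm3 (1.80), the synaptic adhesion gene Lrfn5 (1.78), Trank1 (1.77), the peptide-degrading enzyme gene Trhde (1.73), the AMPA receptor auxiliary subunit gene Shisa9 (1.66), the phosphofructokinase gene Pfkp (1.66) and the RhoA inhibitor gene Ripor2 (1.65) made up the rest of the 15 largest rises, with adjusted p between 9.0e-04 and 0.0045.

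Markers of microglia, vessels, meninges and oligodendrocytes were mostly dim in both groups. The microglial gene Cx3cr1, at 6.21 in red and 6.09 in green cells, was brighter than 67.6% of genes. Slc2a1, the brightest gene of the endothelial and pericyte list, averaged 6.76. Summed linear signals of the microglial list were 393 to 442 in red and 401 to 405 in green arrays, of the endothelial and pericyte list 587 to 605 and 597 to 632, of the meningeal list 349 to 393 and 354 to 362, and of the oligodendrocyte list 305 to 322 and 294 to 317. By comparison, the 19 thalamic identity genes summed to 7944 to 8568 in red and 9318 to 10250 in green arrays. The median member of the other lists averaged 4.96, 4.81, 4.81 and 5.13, near the 4.72 cutoff for dim genes. Their sums are therefore partly array background and do not measure how many such cells were present. Of these 4 other lists, 1 gene was called, the pericyte potassium channel gene Kcnj8 (0.39, SE 0.08, adjusted p = 0.0220), and that call was lost without red replicate 2 (0.0536) or green replicate 1 (0.0662), 2 (0.101) or 3 (0.0685) and in the fit of 15 arrays (0.0864). The list of astrocytes and maturing radial glia, some of whose genes progenitors express too, was brighter and summed to 1351 to 1579 in red and 1511 to 1624 in green arrays. Glul, which encodes glutamine synthetase, was its brightest member at 9.84, and Gfap (5.19 in red, 5.14 in green) was dim. Of its 11 genes tested, Slc1a3 was higher, and Slc1a2, the glutamate transporter GLT-1, was lower, at 7.41 in red and 8.20 in green cells (-0.79, SE 0.10, adjusted p = 0.0025). Erythroid genes moved with the groups. They summed to 230 to 309 in red and 166 to 174 in green arrays, and 2 of 5 tested were higher. Hbb-y, an embryonic beta-like globin, read 7.18, 6.21 and 6.43 in red and 5.12, 5.25 and 5.09 in green arrays (1.46, SE 0.21, adjusted p = 0.0041), and Hba-x, an embryonic alpha-like globin, differed by 0.65 (SE 0.15, adjusted p = 0.0283). Hba-x lost its call without any 1 of the arrays other than red replicate 3 (0.0577 to 0.1162), with no filter on dim genes (0.0666) and in the fit of 15 arrays (0.0524), and without red replicate 3 the list had 3 higher members. The red cell anion exchanger Slc4a1 (0.29) and the erythroid factors Gata1 and Klf1 were not called. The part of these transcripts in the differences above was not tested.

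The comparison between stages asked whether the red-green difference at E14.5 differed from that at E18.5, in a fit of all 15 arrays. The mean of all values was 5.63 to 5.65 in the E14.5 arrays and 6.17 to 6.19 in the E18.5 arrays, so levels are not set side by side across stages. The differences differed for 185 genes (1.11%), 88 (0.529%) more positive and 97 (0.583%) more negative at E14.5. The number was 73 to 123 without any E18.5 green array, any E14.5 red array or green replicate 2 or 3 of E14.5, and 488 when the first replicates of the E18.5 red and double-labelled cells, whose values span a narrower range, were left out. The difference changed between stages at an unadjusted p under 0.05 for 8.92% of genes. Red against green cells at E18.5 gave 90 calls (0.541%) in that fit. Of these, 26 were called in the same direction in the E14.5 fit, which is 28.9% of the E18.5 calls and 1.84% of the E14.5 calls, and 10 in the opposite direction. These shares set the 1416 calls of the 6-array fit against calls of the 15-array fit, and the 2 fits estimate the spread differently. In the 15-array fit red against green cells at E14.5 gave 601 calls.

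Olig3 differed by -3.19 at E14.5 and by -0.14 at E18.5, a stage difference of -3.04 (adjusted p = 9.6e-05). Nhlh1 (-2.53 at E14.5 and -0.04 at E18.5, adjusted p = 6.3e-04 for the stage difference), Slit2 (-2.46 and -0.26, adjusted p = 2.5e-04) and Abcd2 (-2.19 and -0.15, adjusted p = 9.6e-05) followed the same pattern. The cell cycle genes Ube2c (-2.12 and -0.12, adjusted p = 3.3e-04) and Top2a (-1.89 and 0.16, adjusted p = 0.0022) also differed between stages. Pou3f2 (-1.87 and 0.44) and Pantr1 (-1.97 and 0.21) did so too, both with adjusted p = 6.3e-04. At E18.5 Olig3 averaged 5.31 in red and 5.45 in green cells, Nhlh1 4.86 and 4.90 and Abcd2 5.10 and 5.25. Ube2c (5.64 and 5.76) and Top2a (5.60 and 5.44) were also below the E18.5 array means of 6.17 to 6.19. Slit2 (7.02 and 7.28), Pou3f2 (7.29 and 6.85) and Pantr1 (6.79 and 6.58) were above them. For the dim genes, a small E18.5 difference does not show equal expression. On the other side, Lrfn5 was higher in red cells at E14.5 by 1.78 and its E18.5 difference was -0.32 (adjusted p = 0.0013).

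Some genes changed sides between stages. Calb2 was higher in red cells at E14.5 (0.69) and lower at E18.5 (-2.41), a stage difference of 3.09 (adjusted p = 9.6e-05). Cacng3, an AMPA receptor auxiliary subunit (0.95 and -1.45, adjusted p = 9.5e-04), and Necab1 (1.12 and -1.12, adjusted p = 2.5e-04) were likewise called in opposite directions. The E14.5 calls of Calb2 (adjusted p = 0.0242) and Cacng3 (0.0060) were not followed gene by gene through the other settings. At E14.5 Calb2 read 6.52 in red replicate 3 against 5.98 and 5.95 in red replicates 1 and 2. Foxa1, a forkhead factor of the ventral midline, was lower in red cells at E14.5 (-0.73, adjusted p = 0.0298) and higher at E18.5 (1.18), with adjusted p = 0.0019 for the stage difference. Its E14.5 call was lost without red replicate 1 (0.1078) or 2 (0.0772) or green replicate 2 (0.0803) or 3 (0.0511) and with no filter on dim genes (0.0746). Aldh1a1, a retinaldehyde dehydrogenase, read 5.37, 5.62 and 5.38 in red and 5.53, 5.38 and 5.29 in green arrays at E14.5, with a difference of 0.06 against 2.51 at E18.5 (adjusted p = 6.3e-04). Th (-0.02 and 2.01, adjusted p = 3.8e-05) and Slc6a3, the dopamine transporter gene (-0.12 and 2.03, adjusted p = 1.7e-04), shared that pattern. These monoamine genes were singled out after their values were seen.

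Other genes were called in the same direction at both stages. Clybl (-2.61 at E14.5 and -2.35 at E18.5), Nek7 (-1.95 and -2.24), Zic5 (-1.72 and -2.08) and Lhx9 (-0.89 and -0.99) were called lower in red cells at both stages, with adjusted p of 0.97 or more for the stage difference. Slc18a2 (1.92 and 1.68), Vgf (1.19 and 1.42) and Htr1b (0.93 and 0.93) were called higher at both, with adjusted p of 0.92 or more for the stage difference. Gbx2 differed by -0.77 at E14.5 and -2.07 at E18.5, a stage difference of 1.30 (SE 0.425, adjusted p = 0.24) that passed the threshold without E18.5 red replicate 2 (1.71, adjusted p = 0.0251). Calb1 differed by -2.97 and -1.59, and the difference between stages was not called (adjusted p = 0.49). A p above the threshold does not show that 2 differences are equal.

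**Figure D4:**
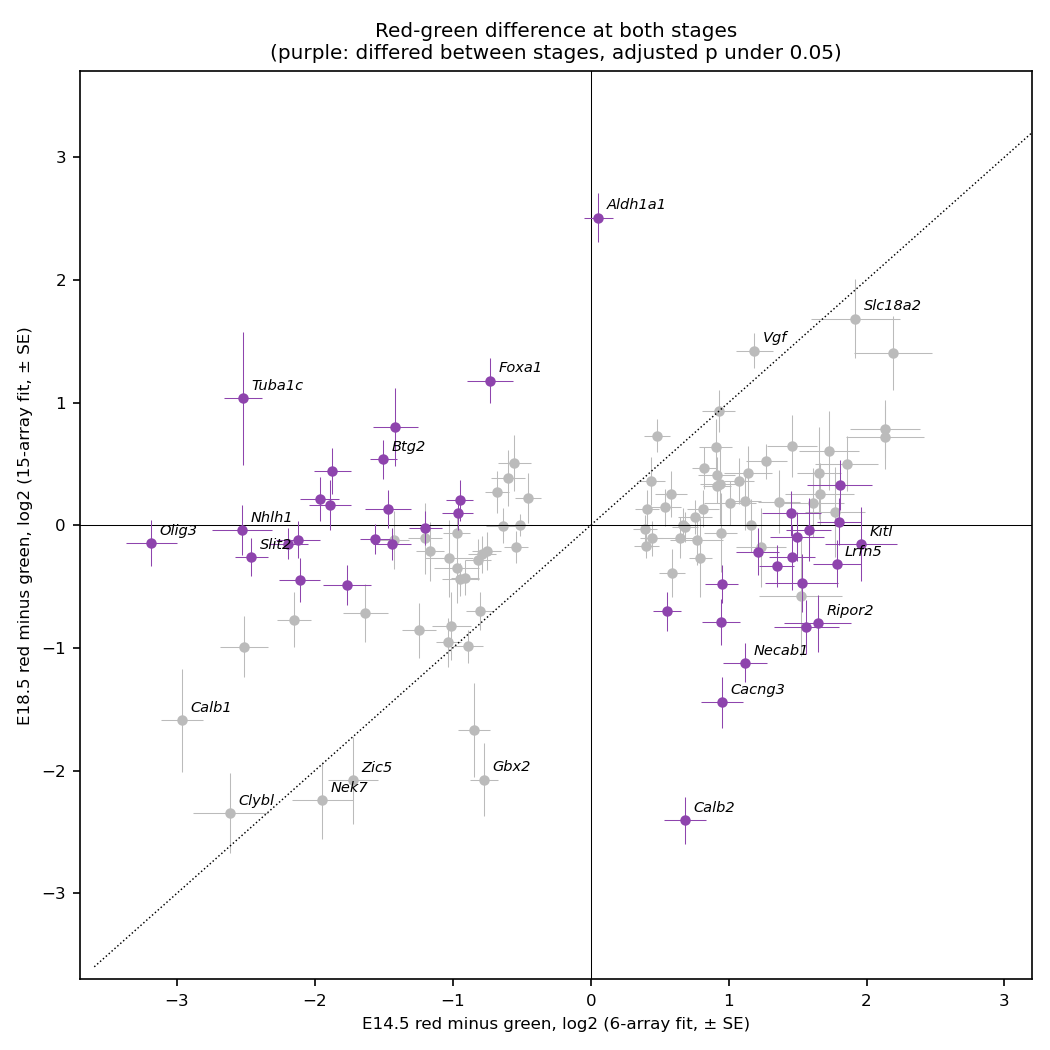
Red minus green difference (log2) at E14.5 (horizontal axis, 6-array fit) against E18.5 (vertical axis, 15-array fit) for the named genes, with SE bars; the dotted line marks equal differences, and purple points are those whose difference between stages is past adjusted p 0.05. Olig3, Nhlh1 and Slit2 lie far to the left near 0 on the vertical axis, Calb2 lies at 0.69 and -2.41, and Clybl and Slc18a2 lie near the dotted line.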

How the data were processed

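Microarray signals of 15 sorted cell samples were used, 3 biological replicates for each of 5 groups, and samples were grouped by their titles. Per the labels' protocols, RNA of sorted cells came from RNeasy mini columns, and 10 ng of it entered a Nugen whole-transcriptome amplification (Ovation Pico WTA V2). Per the submitters' processing notes the arrays went through Affymetrix Expression Console; its version, its algorithm and any filter are not given in the sources used here. What the authors deposited is 1 log2 signal for each transcript cluster (range 4.15 to 13.2), analysed as it stands. Amplification from little RNA and array background compress differences of dim genes.

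Probes were named through the platform's annotation table: 23521 of 33794 clusters named 1 gene, 1814 named several and 8459 none, and only the first were used. By Entrez identifier 23328 matched RefSeq (GRCm38.p6), which changed 0 symbols. For 1082 of 22180 genes with several clusters the brightest over the 6 arrays was kept. Dim genes, the bottom 25% by mean (below 4.72), were removed. limma 3.58.1 in R 4.3.3 was fitted to the 6 E14.5 arrays (4 residual and 9.1 moderated degrees of freedom), and, for the comparison between stages, to the 15 arrays together (10 residual). Tests were two-sided, with Benjamini-Hochberg adjustment over 16635 genes. The procedure was tested on simulated data. Plots used matplotlib 3.10.9 under Python 3.11.15.

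The groups, gene lists, tests and naming rule were chosen with earlier results of these data known. Named were Gbx2, the 15 largest rises and falls among called genes with groups that do not overlap, up to 4 called members per list, 8 genes per direction for the stage difference, and markers of tissue and other cell types; predicted genes, clone names, small RNAs, receptor and immunoglobulin segment families and pseudogenes were left out. Genes named beyond this rule are identified as such, except for list members that were not called, some of which are given with values as examples. Called list members given without a value complete the counts. Arrays have no read depth, and their number limits the precision.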

Additional observations from a re-analysis of the deposited data

Results flagged for a closer look

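For 46 named genes the red-green difference itself differed between stages by limma's interaction test in the fit of 15 arrays, with adjusted p between 3.8e-05 and 0.0499. Most named genes were chosen for their E14.5 difference or for the stage difference, and the test uses the same E14.5 values. The number 46 is therefore no measure of how common such genes are. Over all genes tested the share was 1.11%. Values are the E14.5 difference minus the E18.5 difference, in log2 units. Stage and tamoxifen day cannot be told apart in any of them. Some deposited E18.5 values repeat exactly across red and green arrays. Cdk1 read 4.9526 in red replicate 2 and in every green array, and Barhl2 6.3772 in red replicates 2 and 3 and green replicates 1 and 3. Slit1 read 7.4920 in red replicate 3 and green replicates 2 and 3, and Cntn4 8.1339 in red replicate 2 and green replicates 1 and 2. The part of such repeats in small E18.5 differences was not tested.

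More negative at E14.5 were Olig3 (-3.04) and Prom1 (-1.06) of the progenitor list, Nhlh1 (-2.49) and Btg2 (-2.04) of the list of newborn neurons, Barhl2 (-1.60) of the thalamic identity list and Fgfr2 (-1.45) of the hedgehog and FGF list. Cell cycle genes gave Top2a (-2.05), Ube2c (-2.01), Mki67 (-1.61), Ccnd2 (-1.28) and Cdk1 (-1.18). POU factors and the noncoding neighbour of Pou3f3 gave Pou3f2 (-2.32), Pou3f3 (-1.15), Pou3f4 (-1.29) and Pantr1 (-2.18). The Slit ligands and the microRNA gene within Slit2 gave Slit2 (-2.20), Slit1 (-1.04) and Mir218-1 (-1.67). Mir218-1 differed by -0.78 at E14.5 and 0.89 at E18.5, whereas Slit2 differed by -2.46 and -0.26. In red cells at E14.5 Mir218-1 averaged 4.71, at the level of the 4.72 cutoff for dim genes. Further genes in this direction were Tuba1c (-3.55), Tmem108 (-2.22), Abcd2 (-2.04), Ypel2 (-1.67) and Foxa1 (-1.91). Aldh1a1 (-2.45), Slc6a3 (-2.14) and Th (-2.03) were not called at E14.5 and were higher in red cells at E18.5.

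Genes more positive at E14.5 included the calcium-binding proteins Calb2 (3.09) and Necab1 (2.24), the glutamate receptor genes Cacng3 (2.40), Grm8 (2.00) and Grm5 (1.62) and the GABA receptor genes Gabbr2 (1.68) and Gabra2 (1.59). Adhesion and signalling genes in this direction were Lrfn5 (2.10), Cntn4 (1.72), Cdh4 (1.43), Kitl (2.11) and Drd2 (1.74). Channels, regulators and others were Cacna1e (1.42), Trpm3 (1.48), Ripor2 (2.45), Mast4 (2.39), Rbfox1 (1.77), Prox1 (1.88) and Cpne4 (1.26). The embryonic globin gene Hbb-y (1.36) was flagged as well.

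Of the 17 genes named by the rule for this test, 13 were past the threshold in every alternative that was run. The exceptions were Gbx2, which was not past it, Kitl, Tmem108 and Tuba1c. Kitl lost the call without any 1 of the E18.5 green arrays, any 1 of the E14.5 red arrays or green replicate 2 or 3 of E14.5 (adjusted p = 0.0557 to 0.1033). Tmem108 lost it without the same arrays or without E18.5 red replicate 3 (0.0541 to 0.1082). Tuba1c, with an E18.5 difference of 1.03 and adjusted p of 0.0402, lost it without any 1 of 10 arrays (0.0689 to 0.1248), after quantile normalization (0.068) and with no filter on dim genes (0.0642). Flagged genes outside these 17 were not followed through the alternatives for this test. Among them were Grm5 (adjusted p = 0.0499) and Cntn4 (0.0414), which lay near the threshold.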

How the results depend on the processing

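The number of genes called red against green at E14.5, 1416, fell to 601 with all 15 arrays in the limma fit, of which 600 were among the 1416, and rose to 2500 with array weights, which were lowest for red replicate 3 (0.47) and red replicate 2 (0.61). Leaving out 1 array gave 603 (without green replicate 3) to 2653 (without red replicate 3), and fewer samples leave fewer residual degrees of freedom. Without red replicate 3 the share of calls higher in red was 38.4%, against 50.3%. Quantile normalization (1468), median centring (1293), no filter on dim genes (1122), a 50% filter (1364), other choices among transcript clusters (1406 and 1396) and a prior with an intensity trend (1387) kept the count within 1.5 times. The 185 genes whose difference differed between stages became 308 with the 12 red and green arrays alone, 488 without the narrow-range arrays, and 73 to 212 without 1 array.

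The replicate numbers do not pair the samples by the labels. Deviations from group means of arrays with the same number correlated at 0.07, 0.22 and 0.26, and every array correlated best with its own number, a hint from the data. With the number as a replicate block, 1888 genes were called, 1391 of the 1416 among them, and 338 differed between stages. Xist was at 5.38 and 4.73 in replicate 2 of red and green cells and at 9.95 to 10.84 in the other arrays.

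Of 128 named genes past the threshold at E14.5, 86 were past it in every alternative run and 0 changed direction. Genes that were not called changed sign in some: Foxp2, at 0.03, was at -0.0085 after median centring, -0.0301 with array weights and -0.0339 to 0.1002 with 1 array left out (-0.0337 without red replicate 2), and Th, at -0.02, was at 0.0043 with array weights and -0.0482 to 0.0172 with 1 array left out (0.0045 without green replicate 1). Of 527 list medians by setting, 35 moved by more than the SD between arrays. The median difference of all genes was -0.0367 after median centring and -0.0097 after quantile normalization. Signals near the bottom of the scale, such as Top2a in red cells, limit how far a fold change can be measured.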

Other observations

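MicroRNA genes form a group not described above. Of 223 tested, 13 (5.83%) were called in red against green cells at E14.5 by limma, 10 higher and 3 lower, against 8.51% of all genes. By position 11 of the 13 lie in a protein-coding gene, and strand was not compared. Their names and those of Tenm4, Msi2 and Spaca6 were chosen after the values were seen. The largest difference was that of Mir708, which read 7.44, 7.92 and 6.80 in red and 5.99, 5.42 and 5.26 in green arrays. All red arrays were above all green arrays (1.83, SE 0.27, adjusted p = 0.0044; 0.43 with all 15 arrays in the fit). It lies in Tenm4, a teneurin gene that was also higher, by 1.28 (SE 0.18, adjusted p = 0.0037). Mir218-1 lies in Slit2 and was lower, as Slit2 was (-0.78, SE 0.15, adjusted p = 0.0138; 0.052 without red replicate 1, 0.0697 without green replicate 3 and 0.13 with all 15 arrays in the fit). Transcript clusters that cover a hairpin can also read the transcript of a gene around it on the same strand. The mature microRNA was not measured, so the 2 sources cannot be told apart. Mir378b (-0.52, adjusted p = 0.0312) and Msi2 (-0.78, adjusted p = 0.0042), in which it lies, were both lower. Mirlet7e was higher (0.54, adjusted p = 0.0138) and Spaca6, which encloses it, was lower (-0.54, adjusted p = 0.0061). In the fit of 15 arrays none of these 4 genes was called (0.2129, 0.1928, 0.2664 and 0.3393). The call of Mir378b was also lost with no filter on dim genes (0.0603) and without any 1 of the arrays (0.0519 to 0.125) other than red replicate 3 and green replicate 2, and that of Mirlet7e without red replicate 1 (0.0634) or green replicate 2 (0.0676) and with the mean of all clusters of a gene (0.086). The mature microRNAs of both hairpins (RefSeq, GRCm38.p6, chr7:96249450-96249472 and chr7:96249496-96249517 for miR-708 and chr5:48223966-48223986 and chr5:48224005-48224026 for miR-218-1, plus strand) are given with their seed, bases 2 to 8, in capitals; the 4 seeds differ.
miR-708-5p: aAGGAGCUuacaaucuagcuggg
miR-708-3p: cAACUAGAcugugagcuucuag
miR-218-5p: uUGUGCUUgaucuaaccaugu
miR-218-1-3p: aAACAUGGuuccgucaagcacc
Of 11 genes of cortical excitatory neurons 1 was called at E14.5, Lhx2, which is on the thalamic list too, and of 16 genes of the hypothalamus, pretectum, zona limitans and midbrain 1 was called, Foxa1. Both shares lie near the 8.51% of all genes called, as does that of the immediate early and stress genes. Of 14 habenular and epithalamic genes, Cpne4 (0.56, adjusted p = 0.0105; 0.06 without green replicate 3 and 0.0787 in the fit of 15 arrays) and Irx2 (0.44, adjusted p = 0.0277) were higher and Nhlh2 was lower. The call of Irx2 was lost without red replicate 1 (0.1039) or green replicate 1 (0.0555), 2 (0.0971) or 3 (0.132) and in the fit of 15 arrays (0.3904). Of 23 immediate early and stress genes, 0 were higher and 2 were lower, Btg2 and Jun (-0.55, adjusted p = 0.0205). Jun lost its call without red replicate 1 (0.0618) or 2 (0.054) or green replicate 2 (0.0735) or 3 (0.0836) and in the fit of 15 arrays (0.3142). Without red replicate 3 the list had 1 higher and 3 lower members, and 6 of the 23 had an unadjusted p under 0.05 over all 6 arrays.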
